A study of Mus musculus with 12 samples.

Results

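The transcripts described here encode 51 proteins of DNA replication and of the G1/S transition, measured by RNA sequencing in mouse CD8+ T cells. They were the rows of both count tables whose gene identifiers map, in GENCODE M21, to a fixed list of 51 symbols, out of 55487 identifiers in each table. The list was divided by role into 12 genes of origin licensing, 6 of helicase activation, 6 of the clamp and clamp loader, 10 polymerase and lagging-strand genes, 4 genes of nucleotide supply and 13 G1/S regulators. The study asked how sex and the Y-linked histone demethylase gene Kdm5d shape CD8+ T cells. All 12 samples were OT-1 CD8+ T cells, from transgenic mice whose CD8 T cells carry a single T cell receptor. The Female and Male groups, with 3 samples each, were splenic cells of the 2 sexes stimulated for 3 days with beads carrying antibodies to CD3 and CD28, plus recombinant mouse IL2. WT and KD, also with 3 samples each, came from male cells of another batch that were kept in culture for 3 days after electroporation. Cas9 with guide RNA against Kdm5d was introduced into KD cells, and guide RNA alone into WT cells, so that WT names an unedited control and KD differs from it also by the presence of Cas9. The number and age of the mice were not given, so p-values measure the spread between these samples, which may be technical.

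Replication is prepared in G1, when the origin recognition complex, with Cdc6 and Cdt1, loads a hexamer of the proteins MCM2 to MCM7 onto DNA. In S phase, Cdc45 and the GINS complex join this hexamer to form the active helicase, and DNA polymerases, the sliding clamp PCNA and its loader copy the strands. Cyclin D with Cdk4 or Cdk6, and cyclin E with Cdk2, phosphorylate the retinoblastoma protein, which frees E2F factors to transcribe many of these genes. Activated CD8 T cells divide rapidly, and their entry into S phase depends on this machinery.

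Total counts per sample ranged from 78748647 to 110803318, and the 51 genes took between 0.910% and 1.08% of the counts of a sample. Kdm5d, the targeted gene, had 0, 2 and 0 counts in the Female samples and 4755, 4584 and 4616 in the Male samples. It was at 48.4, 51.9 and 52.4 CPM (counts scaled to a library total of 1000000) in WT and at 21.4, 21.8 and 22.9 CPM in KD, so that KD retained 43.3% of the WT level (log2 fold change -1.21, SE 0.045, edgeR adjusted p = 3.13e-08). All 6 CD8 T cell markers examined were present, with a summed level of 1908 to 2457 CPM. Markers of B cells, myeloid cells and erythroid cells summed to at most 1.37 CPM in any sample, with Ms4a1, Hba-a1 and Hbb-bs at 0 in all 4 groups. CD4 T cell markers summed to at most 6.31 CPM and dendritic cell markers to at most 7.81 CPM. The NK cell list summed to 36.7 to 39.7 CPM in Female and 116 to 123 CPM in Male, and to 150.2 to 153.9 CPM in WT and 153 to 157 CPM in KD, nearly all of it Eomes, which effector CD8 T cells also express. The stromal list, at 29.0 to 45.3 CPM, was nearly all Pecam1, which T cells express as well. In such bulk samples, fewer cells in S phase and less RNA per cell cannot be told apart.

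Between the sexes, these genes were split rather than shifted together. Transcripts for MCM2 to MCM5, PCNA, Fen1, thymidine kinase, the large ribonucleotide reductase subunit, cyclin D3 and Cdk4 were higher in Male, whereas Mcm7, Gins3, Gins4, Pole, Prim1, Rb1, E2f2 and Cdkn1b were lower. By edgeR's quasi-likelihood test with adjusted p under 0.05 over all genes tested, 43 of the 51 were called in Male against Female, 15 higher and 28 lower. Their share of 84.3% compares with 49.8% of all 20208 tested genes and with 76.2% of those averaging 3 or more in log2 CPM, a range that holds all 51. The share called lower was 54.9%, against 26.3% of all tested genes, and the share called higher was 29.4%, against 23.5%. When only genes of at least that mean level were tested, 19 were called higher and 26 lower, and the matching shares of those genes were 37.9% and 38.3%. Samples of the 2 groups did not overlap for 44 of the 51 (86.3%, against 58.3% of all tested genes). The 51 had a median log2 fold change of -0.14, against 0.011 for all tested genes. With a trend in gene length and GC content removed, 17 were called higher and 24 lower, and the median was -0.059. Most changes were small: called members had a median absolute log2 fold change of 0.23 and all called genes one of 0.43. Members were more abundant than most tested genes (median log2 CPM 6.67 against 2.70), and the comparisons of size and of overlap here were not matched for level. Of the 51 genes, 5 were called with an absolute log2 fold change of at least 0.5, or 9.80%, compared with 21.4% of all tested genes. These were Ccnd3, Fen1 and Tk1, higher in Male, and E2f2 and Rb1, lower in Male.

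In KD against WT, the same transcripts moved mainly one way. Genes of every role rose in KD, including all 4 genes of nucleotide supply and MCM2 to MCM7, while Cdt1, Rpa1, Ccnd2, Ccnd3 and Rb1 fell. The test called 36 of the 51, 31 higher and 5 lower, which is 70.6% against 35.1% of all 20413 tested genes and 60.7% of those averaging 3 or more in log2 CPM. The share called higher was 60.8%, against 16.8% of all tested genes, and the share called lower was 9.80%, against 18.4%. Among genes of at least that mean level, tested alone, 34 of the 51 were called higher and 5 lower, where 30.4% and 30.3% of the genes were called in each direction. For 38 of the 51 the samples did not overlap (74.5%, against 46.8% of all tested genes). The median log2 fold change stood at 0.16, against 0.012 for all tested genes. No member reached an absolute log2 fold change of 0.5 in this comparison by edgeR, DESeq2 or limma-voom, also at an unadjusted p under 0.05, compared with 9.95% of all tested genes called at that size. Neither that share nor the 46.8% without overlap was matched for level (median log2 CPM 6.56 for members against 2.51 for all tested genes). The range ran from -0.18 for Ccnd3 to 0.47 for Cdkn2c. The summed level of the 51 genes was 9892 to 9928 CPM in the WT samples and 10606 to 10693 CPM in the KD samples, without overlap. Male and Female differed the other way, with 9296 to 9440 CPM in Female and 9067 to 9166 CPM in Male. Cdk6 alone averaged 1670 CPM in Female and 1389 CPM in Male, a gap larger than that between the mean sums. The lower sum in Male therefore rests on this gene, and without it the sums of the 2 groups overlap. With the length and GC trend removed, the Cdk6 log2 fold change between the sexes was -0.063, against -0.27 in the main fit.

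**Figure D1:**
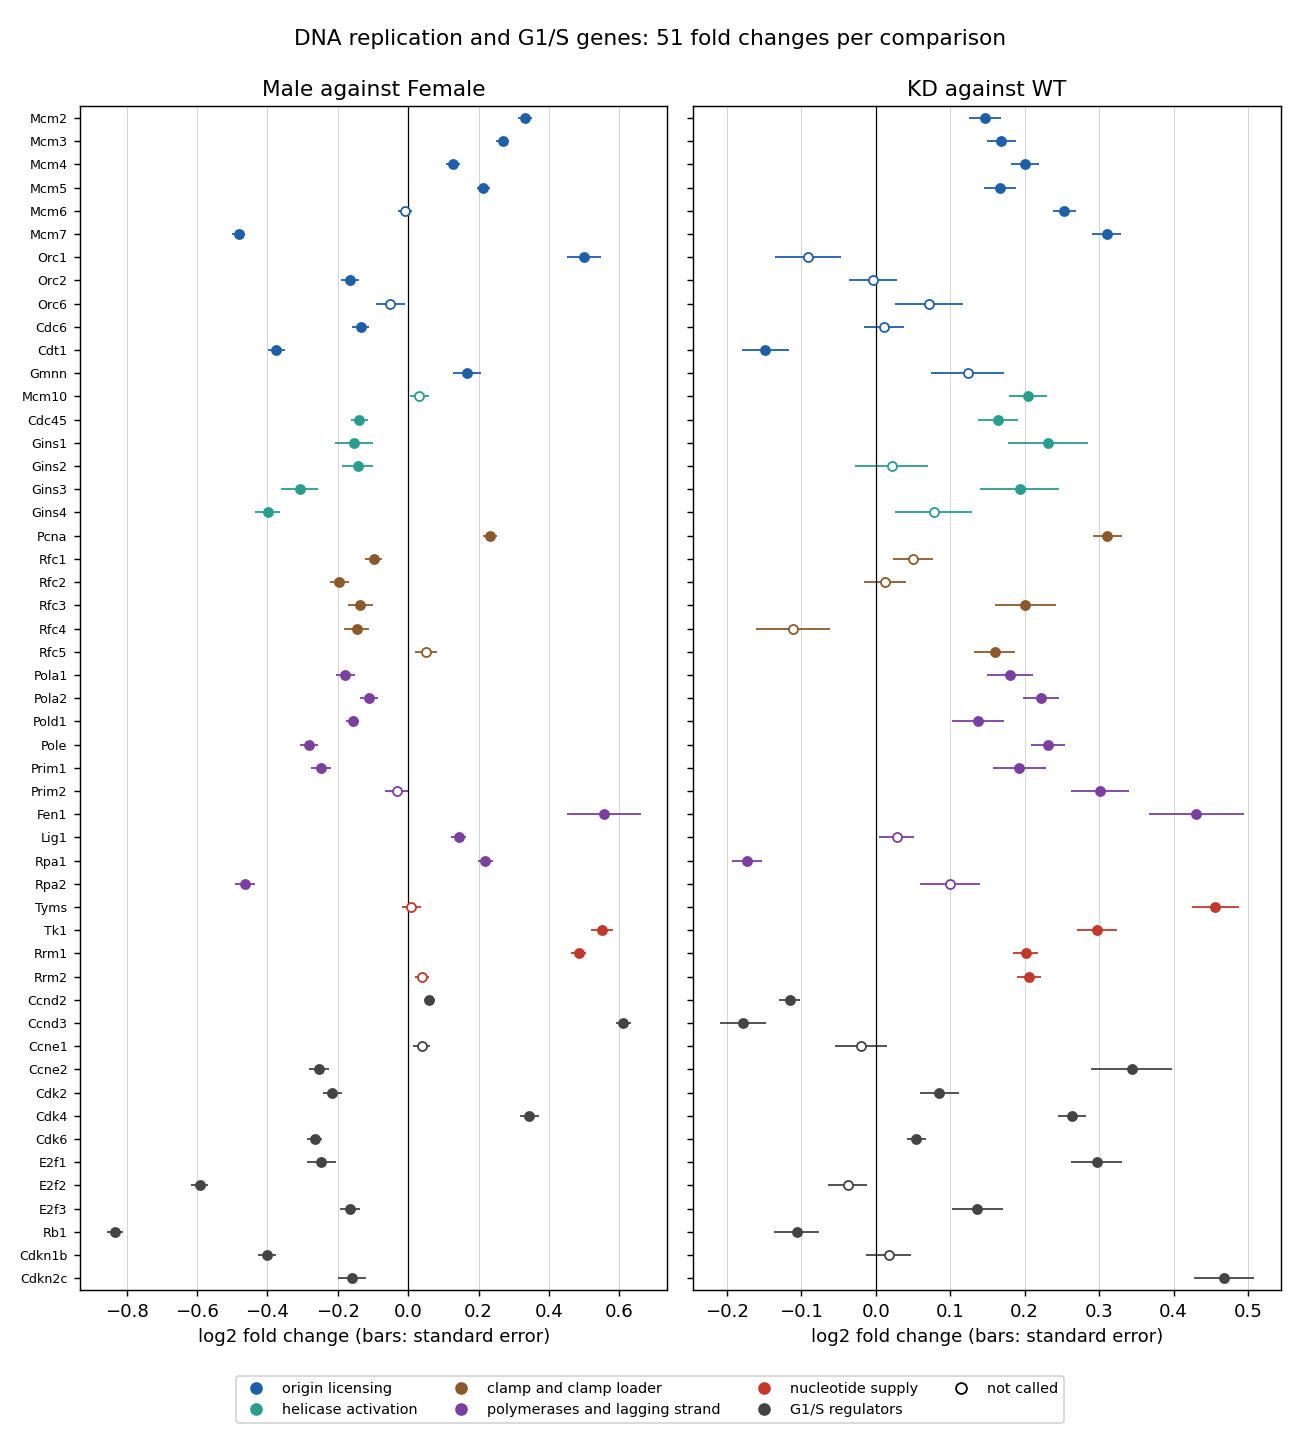
Log2 fold changes of the 51 genes, ordered by role, in Male against Female and in KD against WT, with bars of 1 standard error and filled points for genes called at an adjusted p under 0.05. In Male against Female called points lie on both sides of 0 (15 higher, 28 lower), and in KD against WT 31 of 36 called points lie above it.

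Because E2F factors act through the promoters of many of these genes, the bases before their RefSeq start sites were searched. RefSeq promoter windows (GRCm38.p6) were matched for 40 of the 51 genes. The other genes, with no window matched, were Mcm4, Gmnn, Gins1, Gins2, Gins4, Rfc2, Pole, Prim2, Ccnd2, Ccne2 and Rb1. The 250 bases upstream of the start were searched on both strands for the E2F-type letters TTTCCCGC, TTTGGCGC, TTTCGCGC and TTTGCCGC, which can overlap one another. A match was found for 10 of the 40 genes (25%), compared with 583 of all 27025 genes with a window (2.2%). Genes with several windows were counted if any of them matched. Of the 10 licensing genes with a window, 5 had a match. The letters CCAAT were found for 25 of the 40 genes (62.5%), compared with 37.5% of all genes with a window. The cell cycle homology letters TTTGAA or TTCGAA were found for 8 of the 40 (20%), compared with 19.6%. The 10 stretches with an E2F-type match are shown to let the letters around the match be compared. Each is written 5′ to 3′ on the strand of its gene, with the matched letters, or their complement strand, in capitals.
Mcm5, chr8:75109349-75109378, plus strand: caagaacTTTCGCGCCAAAacgtccagcct
Mcm6, chr1:128359734-128359763, minus strand: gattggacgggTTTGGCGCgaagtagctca
Mcm7, chr5:138172030-138172059, minus strand: aatttcgaaccGCGGGAAAcagggtgtcca
Orc1, chr4:108579416-108579445, plus strand: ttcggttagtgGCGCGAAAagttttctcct
Cdc6, chr11:98908002-98908031, plus strand: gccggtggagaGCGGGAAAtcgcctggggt
Gins3, chr8:95633507-95633536, plus strand: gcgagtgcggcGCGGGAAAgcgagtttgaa
Rfc3, chr5:151651209-151651229, minus strand: acgtcgcacgcTTTCGCGCtc
Pola1, chrX:93632275-93632304, minus strand: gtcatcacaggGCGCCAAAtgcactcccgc
Cdk2, chr10:128705173-128705202, minus strand: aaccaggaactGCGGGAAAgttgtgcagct
E2f3, chr13:29986064-29986085, minus strand: ttgaaaagccgGCGGGAAAtct
Of these 10 genes, 2 were called higher and 7 lower in Male against Female, and 8 were called higher and 0 lower in KD against WT. Among the 30 genes whose windows had no match, 10 were higher and 14 lower in Male, and 18 were higher and 3 lower in KD. A match describes these letters only and was not tested as a binding site. RefSeq and GENCODE starts differ for some genes. By the GENCODE M21 positions, the stretches of Mcm7, Cdc6, Gins3 and Rfc3 lie inside the gene, and that of Orc1 spans its start.

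The genes of origin licensing divided within the MCM2 to MCM7 hexamer itself when the sexes were compared. Transcripts of Mcm2, Mcm3, Mcm4 and Mcm5 were higher in Male, that of Mcm7 was lower, and Mcm6 was not called (log2 fold change -0.0079, edgeR adjusted p = 0.770). Of the 12 genes, 6 were called higher, 4 lower and 2 not, with a median log2 fold change of 0.059. Mcm7 (ENSMUSG00000029730, chromosome 5, 138164583 to 138172422, GRCm38) was at 470.0, 471 and 479.8 CPM in Female and 334, 343 and 341 CPM in Male. Mcm7 was lower in every Male sample than in any Female sample (log2 fold change -0.48, SE 0.019, edgeR adjusted p = 1.16e-08). Mcm2 (ENSMUSG00000002870, chromosome 6, 88883474 to 88898780) showed the opposite, at 229, 225 and 228 CPM in Female and 286, 283 and 289 CPM in Male. In Male cells Mcm2 was higher without overlap between the groups (log2 fold change 0.33, SE 0.020, edgeR adjusted p = 2.75e-07). Mcm3 was at 254, 257 and 251 CPM in Female and 305, 305 and 306 CPM in Male. Mcm3 had its 3 Male samples above its 3 Female samples (log2 fold change 0.27, SE 0.019, edgeR adjusted p = 9.04e-07). Cdt1, which brings the hexamer to the origin recognition complex, was at 185, 187 and 192 CPM in Female and 143, 148 and 145 CPM in Male. Cdt1 values in Male all lay below those in Female (log2 fold change -0.37, SE 0.025, edgeR adjusted p = 5.28e-07). Mcm4 and Mcm5 were 9.19% and 15.99% higher in Male. Orc1, the largest subunit of the origin recognition complex, rose by 0.50 on the log2 scale from 23.2 ± 1.09 CPM in Female to 32.8 ± 1.38 CPM in Male (SD, n = 3), whereas Orc2 fell by 0.17 and Orc6 was not called. Cdc6, the loading ATPase, was lower by 8.94%. Geminin, the inhibitor of Cdt1 encoded by Gmnn, was 12.4% higher, a call that was lost when the length and GC trend was removed (adjusted p = 0.292). Under the same setting the Cdc6 log2 fold change shrank from -0.14 to -0.076, and Orc6 was called lower (-0.13, adjusted p = 0.0210, against -0.050).

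In KD against WT the transcripts of all 6 subunits rose: each of Mcm2 to Mcm7 was called higher, by 0.15 to 0.31 on the log2 scale. Over the 12 licensing genes 6 were called higher, 1 lower and 5 not, and the median log2 fold change was 0.14. Mcm6 was at 413, 415 and 417 CPM in WT and 494, 494 and 495 CPM in KD. Mcm6 was higher in every KD sample than in any WT sample (log2 fold change 0.25, SE 0.016, edgeR adjusted p = 9.67e-07). Mcm7, lower in Male than in Female, was at 316, 319 and 314 CPM in WT and 394, 398 and 385 CPM in KD. Mcm7 values in KD all lay above those in WT (log2 fold change 0.31, SE 0.019, edgeR adjusted p = 1.01e-06). Mcm4 was at 289, 295 and 288 CPM in WT and 338, 332 and 332 CPM in KD. In KD cells Mcm4 was higher without overlap between the groups (log2 fold change 0.20, SE 0.019, edgeR adjusted p = 2.03e-05). Mcm3 was at 338, 339 and 332 CPM in WT and 373, 385 and 376 CPM in KD. Mcm3 had its 3 KD samples above its 3 WT samples (log2 fold change 0.17, SE 0.020, edgeR adjusted p = 7.75e-05). Cdt1 was the licensing gene that fell by 9.75%, from 127 ± 3.18 CPM in WT to 115 ± 3.66 CPM in KD (SD, n = 3; edgeR adjusted p = 0.00397). Its log2 fold change of -0.15 became -0.23 with the length and GC trend removed. The loaders Orc1, Orc2, Orc6 and Cdc6, and Gmnn, were not called, with log2 fold changes of -0.091, -0.0039, 0.071, 0.011 and 0.12. Gmnn was called when KD replicate 3 was left out (log2 fold change 0.17, adjusted p = 0.0211). It was also called with upper-quartile scaling, in DESeq2, among genes averaging 3 or more in log2 CPM and with the length and GC trend removed (adjusted p = 0.0343, 0.0425, 0.0331 and 0.0321).

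**Figure D2:**
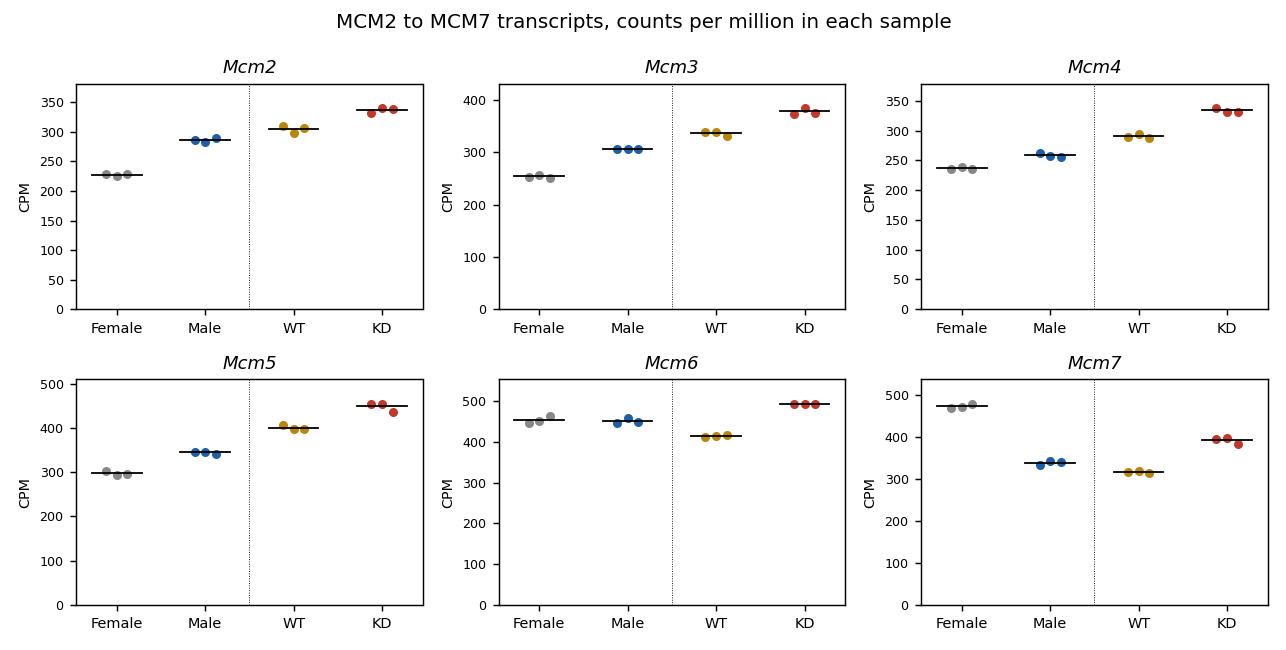
CPM of Mcm2 to Mcm7 in each of the 12 samples, with a line at each group mean. A dotted line separates the tables, which were scaled separately. Mcm7 is lower in Male than in Female while Mcm2 to Mcm5 are higher, and all 6 genes are higher in KD than in WT.

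The helicase activation genes were mostly lower in Male. Of Cdc45, the 4 GINS genes and Mcm10, 5 were called lower and none higher, with a median log2 fold change of -0.15, and Mcm10 was not called (log2 fold change 0.032). Mcm10, which helps the assembled helicase to unwind, was called higher when only genes averaging 3 or more in log2 CPM were tested (0.063, adjusted p = 0.0324), and with the length and GC trend removed (0.15, adjusted p = 0.00103). Gins4, encoding the Sld5 subunit of GINS, was at 49.4, 48.2 and 50.6 CPM in Female and 36.2, 38.5 and 37.6 CPM in Male. Gins4 was lower in every Male sample than in any Female sample (log2 fold change -0.40, SE 0.035, edgeR adjusted p = 5.08e-06). Cdc45, the partner of GINS on the hexamer, was at 94.4, 93.9 and 93.4 CPM in Female and 84.2, 86.4 and 85.2 CPM in Male. Cdc45 values in Male all lay below those in Female (log2 fold change -0.14, SE 0.023, edgeR adjusted p = 5.29e-04). Gins3 was at 27.6, 25.3 and 26.9 CPM in Female and 20.4, 21.3 and 22.7 CPM in Male. Gins3 had its 3 Male samples below its 3 Female samples (log2 fold change -0.31, SE 0.053, edgeR adjusted p = 6.36e-04). Gins2 was at 39.01, 38.1 and 40.002 CPM in Female and 37.7, 34.1 and 34.2 CPM in Male. In Male cells Gins2 was lower without overlap between the groups (log2 fold change -0.14, SE 0.045, edgeR adjusted p = 0.0224). Gins2 and Gins1 lay near the threshold. Gins1 lost its call without Female replicate 3 (adjusted p = 0.129) or Male replicate 3 (adjusted p = 0.111). Its log2 fold change of -0.15 became -0.28 with the length and GC trend removed. Gins2 lost it without Female replicate 3, Male replicate 2 or Male replicate 3 (adjusted p = 0.0796, 0.0623 and 0.0807). It lost it also with the length and GC trend removed (adjusted p = 0.137). Gins2 shares 66.2% of its 31-base words with other genes of the annotation, and its exons overlap Gse1 on the opposite strand. Gse1 averaged 86.5 CPM in Female and 67.6 CPM in Male, and its part in the Gins2 difference was not tested.

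In KD, Mcm10, Cdc45, Gins1 and Gins3 were called higher and none of the 6 genes lower, with a median log2 fold change of 0.18. Mcm10 was at 94.4, 91.1 and 93.5 CPM in WT and 107, 107 and 107 CPM in KD. Mcm10 was higher in every KD sample than in any WT sample (log2 fold change 0.20, SE 0.026, edgeR adjusted p = 1.44e-04). Cdc45 was at 70.7, 72.2 and 71.2 CPM in WT and 79.3, 80.96 and 79.6 CPM in KD. In KD cells Cdc45 was higher without overlap between the groups (log2 fold change 0.16, SE 0.027, edgeR adjusted p = 8.94e-04). Gins1, the Psf1 subunit, was at 14.3, 15.4 and 15.05 CPM in WT and 17.1, 18.4 and 17.1 CPM in KD. Gins1 had its 3 KD samples above its 3 WT samples (log2 fold change 0.23, SE 0.054, edgeR adjusted p = 0.00704). Gins3 was at 18.7, 17.7 and 19.9 CPM in WT and 22.2, 20.9 and 21.4 CPM in KD. Gins3 values in KD all lay above those in WT (log2 fold change 0.19, SE 0.053, edgeR adjusted p = 0.0161). The Gins3 call was lost without WT replicate 1, WT replicate 2 or KD replicate 1 (adjusted p = 0.0554, 0.0603 and 0.0615). Gins2 and Gins4 were not called, with log2 fold changes of 0.022 and 0.078. Cdc45, Gins1 and Gins3 thus changed in opposite directions in the 2 comparisons.

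The sliding clamp and its loader were separate in Male against Female. Pcna, the clamp that holds polymerases on DNA, was higher in Male, while Rfc1, Rfc2, Rfc3 and Rfc4 of the loader were lower and Rfc5 was not called (log2 fold change 0.051). The median over the 6 genes was -0.12. Pcna (ENSMUSG00000027342, chromosome 2, 132249162 to 132253314) was at 319, 313 and 311 CPM in Female and 372, 367 and 369 CPM in Male. Pcna was higher in every Male sample than in any Female sample (log2 fold change 0.23, SE 0.019, edgeR adjusted p = 2.58e-06). Rfc2 was at 103, 103 and 104 CPM in Female and 89.7, 93.7 and 87.8 CPM in Male. Rfc2 values in Male all lay below those in Female (log2 fold change -0.20, SE 0.028, edgeR adjusted p = 1.95e-04). Rfc4 was at 45.1, 44.2 and 45.1 CPM in Female and 41.4, 41.005 and 38.9 CPM in Male. In Male cells Rfc4 was lower without overlap between the groups (log2 fold change -0.15, SE 0.035, edgeR adjusted p = 0.00509). Rfc1, the large subunit that distinguishes this loader, was at 172, 177 and 170.5 CPM in Female and 163, 163 and 160.0 CPM in Male. Rfc1 had its 3 Male samples below its 3 Female samples (log2 fold change -0.10, SE 0.023, edgeR adjusted p = 0.00515). With the length and GC trend removed, the Rfc1 call was lost (log2 fold change -0.028, adjusted p = 0.389), Pcna and Rfc2 shrank to 0.15 and -0.092, and Rfc4 grew to -0.28. Rfc5 was called higher under that setting (0.11, adjusted p = 0.0130) and among genes averaging 3 or more in log2 CPM (0.081, adjusted p = 0.0229).

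In KD, Pcna, Rfc3 and Rfc5 were called higher, Rfc1, Rfc2 and Rfc4 were not called, and none was called lower. Pcna was at 395, 396 and 407 CPM in WT and 502, 489 and 495 CPM in KD. Pcna values in KD all lay above those in WT (log2 fold change 0.31, SE 0.019, edgeR adjusted p = 9.65e-07). Pcna shares 23.3% of its 31-base words with other genes, and its pseudogene Pcna-ps2 was at 10.6 CPM in WT and 13.8 CPM in KD. Rfc5 was at 83.8, 81.5 and 83.6 CPM in WT and 93.7, 90.8 and 93.5 CPM in KD. Rfc5 was higher in every KD sample than in any WT sample (log2 fold change 0.16, SE 0.028, edgeR adjusted p = 0.00125). Rfc3 was at 33.9, 35.5 and 35.1 CPM in WT and 41.7, 39.7 and 38.7 CPM in KD. Rfc3 had its 3 KD samples above its 3 WT samples (log2 fold change 0.20, SE 0.041, edgeR adjusted p = 0.00319). Rfc4 had a log2 fold change of -0.11 and was called lower when KD replicate 2 was left out (-0.16, adjusted p = 0.0339). Rfc1 had one of 0.050 and was called higher with upper-quartile scaling (adjusted p = 0.0412) or the mean level filter (adjusted p = 0.0324).

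Among the 10 polymerase and lagging-strand genes, 3 were called higher in Male, 6 lower and 1 not, with a median log2 fold change of -0.13. The genes that rose were Fen1 and Lig1, which process and join Okazaki fragments, and Rpa1, the large subunit of the single-strand binding protein RPA. Genes of the priming and replicative polymerases (Pola1, Pola2, Prim1, Pold1, Pole) were lower, as was Rpa2, and Prim2 was not called. With the length and GC trend removed, Pold1 and Pola2 turned to the positive side (0.044 and 0.014) and Pola1 was no longer called (adjusted p = 0.0915), so the lower level of these 3 depends on that setting. Pole kept its call under it, at -0.085 (adjusted p = 0.0176). The subunits of RPA went opposite ways. Rpa2 was at 94.3, 93.2 and 98.4 CPM in Female and 69.6, 67.9 and 69.99 CPM in Male. Rpa2 was lower in every Male sample than in any Female sample (log2 fold change -0.46, SE 0.028, edgeR adjusted p = 2.88e-07). Rpa1 was at 250.1, 255 and 253 CPM in Female and 293, 300.1 and 289.9 CPM in Male. In Male cells Rpa1 was higher without overlap between the groups (log2 fold change 0.22, SE 0.021, edgeR adjusted p = 8.98e-06). Pole, the catalytic subunit of the leading-strand polymerase, was at 282, 299 and 289 CPM in Female and 242, 237 and 237 CPM in Male. Pole values in Male all lay below those in Female (log2 fold change -0.28, SE 0.025, edgeR adjusted p = 5.06e-06). Prim1, the catalytic primase subunit, was at 78.2, 75.99 and 73.5 CPM in Female and 64.96, 63.4 and 63.5 CPM in Male. Prim1 had its 3 Male samples below its 3 Female samples (log2 fold change -0.25, SE 0.029, edgeR adjusted p = 4.24e-05). Fen1, the flap endonuclease, had the largest spread between replicates of the 51 genes in Female, Male and WT, with coefficients of variation of 12.5%, 13.7% and 9.59%. It was at 44.1, 55.7 and 54.9 CPM in Female and 84.9, 78.2 and 64.5 CPM in Male. In Male cells Fen1 was higher without overlap between the groups (log2 fold change 0.56, SE 0.10, edgeR adjusted p = 0.00121). Fen1 shares 79.6% of its 31-base words with other genes, and its exons overlap Gm10143 and Tmem258 on the opposite strand, whose means were 10.0 and 14.6 CPM in Female and 16.6 and 21.8 CPM in Male. Their part in the Fen1 difference was not tested.

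In KD against WT, 7 of these 10 genes were called higher, 1 lower and 2 not, with a median log2 fold change of 0.19. Pole, Pola1, Pola2, Pold1, Prim1, Prim2 and Fen1 rose. Pole was at 166, 159 and 162 CPM in WT and 192, 191 and 189.6 CPM in KD. Pole was higher in every KD sample than in any WT sample (log2 fold change 0.23, SE 0.023, edgeR adjusted p = 2.49e-05). Pola2, the accessory subunit of polymerase alpha, was at 109.9, 109 and 111 CPM in WT and 129, 126 and 129 CPM in KD. Pola2 values in KD all lay above those in WT (log2 fold change 0.22, SE 0.024, edgeR adjusted p = 4.73e-05). Prim2, the regulatory primase subunit, was at 31.5, 32.2 and 33.3 CPM in WT and 40.8, 39.1 and 39.6 CPM in KD. Prim2 had its 3 KD samples above its 3 WT samples (log2 fold change 0.30, SE 0.038, edgeR adjusted p = 1.57e-04). Rpa1 was the gene that fell, at 354, 359 and 357 CPM in WT and 312, 323 and 313 CPM in KD. In KD cells Rpa1 was lower without overlap between the groups (log2 fold change -0.17, SE 0.020, edgeR adjusted p = 8.03e-05). Rpa2 and Lig1 were not called (log2 fold changes 0.10 and 0.028). Rpa2 was near the threshold (adjusted p = 0.0831), and it was called when KD replicate 2 was left out (adjusted p = 0.0381). It was also called under 5 other settings, with adjusted p from 0.0167 to 0.0499. Pold1 lost its call with the length and GC trend removed (adjusted p = 0.346). Fen1 was at 116, 135 and 113 CPM in WT and 171, 152 and 167 CPM in KD (log2 fold change 0.43, edgeR adjusted p = 4.32e-04), while the means of Gm10143 and Tmem258 were lower in KD, at 18.2 against 24.3 CPM and 24.2 against 28.2 CPM.

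Nucleotide supply was the role in which no gene was called lower in either comparison. In Male against Female, Rrm1 and Tk1 were higher, and Rrm2 and Tyms were not called, with a median log2 fold change of 0.26 over the 4 genes. Rrm1 (ENSMUSG00000030978, chromosome 7, 102441695 to 102469771), the large subunit of ribonucleotide reductase, was at 251, 248 and 255 CPM in Female and 354, 357 and 345 CPM in Male. Rrm1 was higher in every Male sample than in any Female sample (log2 fold change 0.49, SE 0.021, edgeR adjusted p = 2.65e-08). Tk1 (ENSMUSG00000025574, chromosome 11, 117815526 to 117826092), the cytosolic thymidine kinase of the salvage route, was at 66.6, 63.8 and 64.2 CPM in Female and 97.4, 96.1 and 91.3 CPM in Male. Tk1 values in Male all lay above those in Female (log2 fold change 0.55, SE 0.031, edgeR adjusted p = 1.79e-07). Rrm2, the small subunit that pairs with Rrm1, was at 321, 330.0 and 327 CPM in Female and 336, 338 and 330.2 CPM in Male. Male values of Rrm2 lay just above the Female values, a log2 fold change of 0.038 that was not called (edgeR adjusted p = 0.142). Rrm2 was called among genes averaging 3 or more in log2 CPM (0.069, adjusted p = 0.00992). Tyms, thymidylate synthase of the de novo route, was at 53.9, 52.9 and 53.05 CPM in Female and 52.96, 53.4 and 54.5 CPM in Male, with overlapping groups (log2 fold change 0.0092, adjusted p = 0.815). Tyms was called higher with the length and GC trend removed (0.081, adjusted p = 0.0452).

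In KD against WT all 4 genes rose, with a median log2 fold change of 0.25. Tyms (ENSMUSG00000025747, chromosome 5, 30058202 to 30073617) was at 60.9, 61.05 and 59.97 CPM in WT and 80.9, 86.1 and 82.6 CPM in KD. Tyms was higher in every KD sample than in any WT sample (log2 fold change 0.46, SE 0.032, edgeR adjusted p = 2.30e-06). Rrm2 was at 536, 526 and 536 CPM in WT and 617, 611 and 615 CPM in KD. In KD cells Rrm2 was higher without overlap between the groups (log2 fold change 0.21, SE 0.016, edgeR adjusted p = 4.48e-06). Rrm1 was at 399, 400.3 and 396 CPM in WT and 458, 454 and 462 CPM in KD. Rrm1 values in KD all lay above those in WT (log2 fold change 0.20, SE 0.017, edgeR adjusted p = 7.12e-06). Tk1 was at 96.5, 97.5 and 97.9 CPM in WT and 118, 123 and 118 CPM in KD. Tk1 had its 3 KD samples above its 3 WT samples (log2 fold change 0.30, SE 0.026, edgeR adjusted p = 1.21e-05). Both routes to thymidine nucleotides, and both reductase subunits, therefore had more transcript in KD than in WT.

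**Figure D3:**
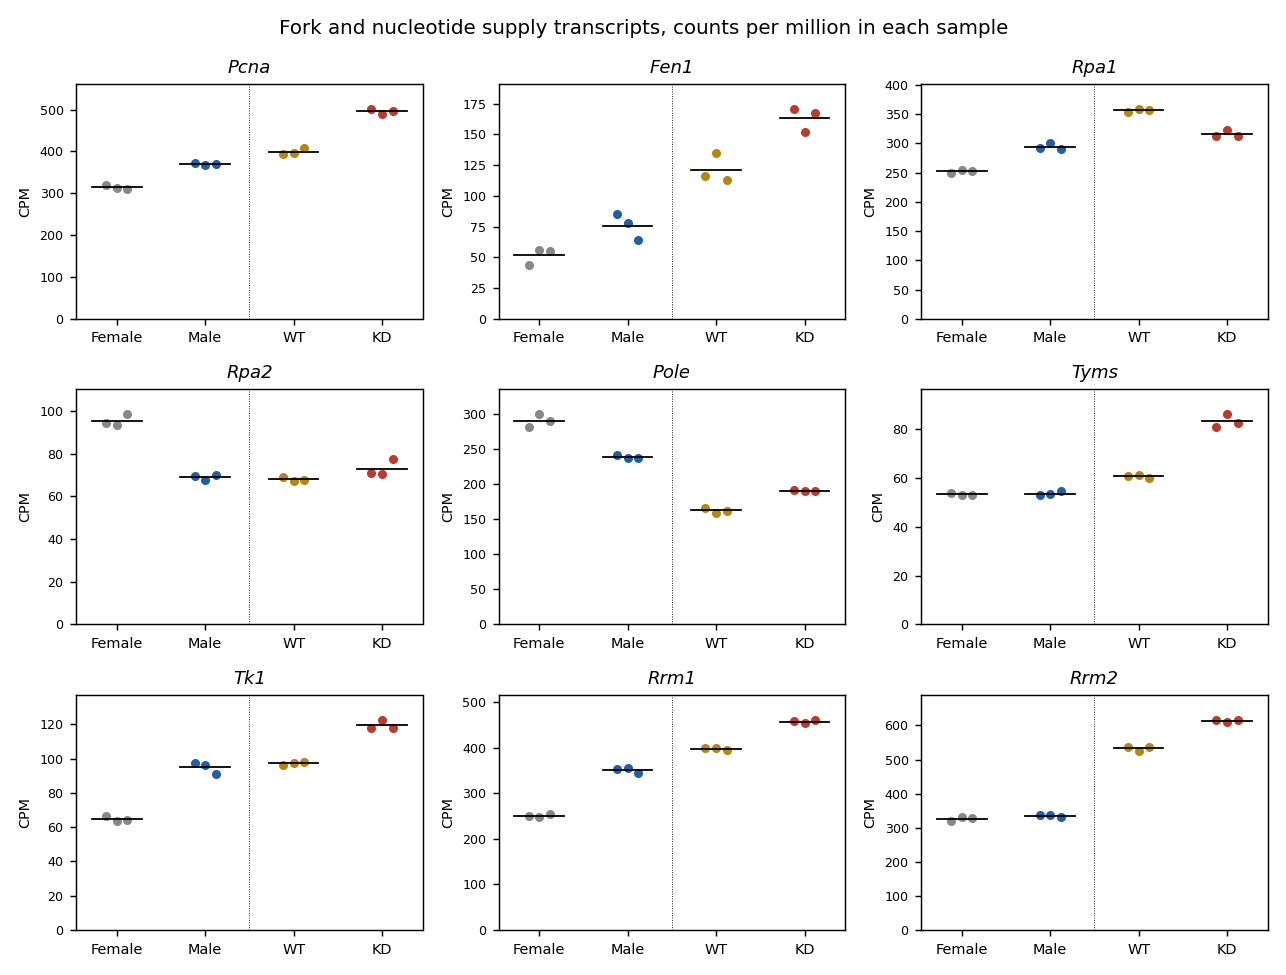
CPM of 9 fork and nucleotide supply genes in each of the 12 samples, with a line at each group mean and a dotted line between the separately scaled tables. Rpa1 and Rpa2 move in opposite directions between Female and Male, Rpa1 falls in KD, and the 4 nucleotide supply genes all rise in KD.

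G1/S regulators held both the lowest and the highest log2 fold change of the 51 genes between the sexes, those of Rb1 and Ccnd3. Of 13 genes, 3 were called higher in Male (Ccnd2, Ccnd3, Cdk4), 9 lower and 1 not (Ccne1), with a median log2 fold change of -0.22. Rb1 (ENSMUSG00000022105, chromosome 14, 73183673 to 73325822), which encodes the retinoblastoma protein that holds E2F in check, was at 196, 198 and 194 CPM in Female and 111, 111 and 108 CPM in Male. Rb1 was lower in every Male sample than in any Female sample (log2 fold change -0.83, SE 0.023, edgeR adjusted p = 9.89e-10). That is 43.9% less transcript in Male. Ccnd3 (ENSMUSG00000034165, chromosome 17, 47505051 to 47599691), cyclin D3, was at 247, 239.9 and 239.7 CPM in Female and 368, 375 and 367 CPM in Male. Ccnd3 values in Male all lay above those in Female (log2 fold change 0.61, SE 0.021, edgeR adjusted p = 4.28e-09). The Male mean of cyclin D3 was 1.53 times the Female mean. E2f2, one of the activator E2F factors, was at 229.6, 237 and 237 CPM in Female and 152, 157 and 158 CPM in Male. E2f2 had its 3 Male samples below its 3 Female samples (log2 fold change -0.59, SE 0.024, edgeR adjusted p = 1.63e-08). Cdkn1b, encoding the kinase inhibitor p27, was at 176, 172 and 175 CPM in Female and 132, 136 and 129 CPM in Male. In Male cells Cdkn1b was lower without overlap between the groups (log2 fold change -0.40, SE 0.025, edgeR adjusted p = 3.47e-07). The kinases that pair with cyclin D differed in direction: Cdk4 was 26.9% higher in Male and Cdk6 was 16.8% lower. E2f1 and E2f3, the other activator E2F genes listed, were lower by 15.8% and 10.8%, and Ccne2 and Cdk2 by 16.1% and 13.9%. Cdkn2c, encoding the INK4 inhibitor p18, was lower by 10.4%. Ccnd2, cyclin D2, was only 4.22% higher (edgeR adjusted p = 0.00977). Its call was lost without Female replicate 1, Male replicate 1 or Male replicate 2 (adjusted p = 0.0631, 0.0637 and 0.0533). With the length and GC trend removed Ccnd2 grew from 0.060 to 0.21 on the log2 scale, while Cdk6 shrank from -0.27 to -0.063, Cdk2 from -0.22 to -0.13 and E2f3 from -0.17 to -0.10, all still called. Ccnd2 was at 0.038 in the fit to all 12 samples and at 0.091 among genes averaging 3 or more in log2 CPM, where Ccne1 was called higher (0.069, adjusted p = 0.0138).

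In KD against WT the regulators were mixed, with 7 called higher, 3 lower and 3 not, and a median log2 fold change of 0.054. Cdk4 was at 259, 257 and 253 CPM in WT and 307, 311 and 305 CPM in KD. Cdk4 was higher in every KD sample than in any WT sample (log2 fold change 0.26, SE 0.019, edgeR adjusted p = 3.03e-06). Cdkn2c (ENSMUSG00000028551, chromosome 4, 109660876 to 109667189) was at 35.5, 36.6 and 38.8 CPM in WT and 51.4, 50.97 and 51.1 CPM in KD. Cdkn2c values in KD all lay above those in WT (log2 fold change 0.47, SE 0.040, edgeR adjusted p = 8.99e-06). E2f1 was at 36.2, 36.9 and 35.99 CPM in WT and 44.2, 45.5 and 44.3 CPM in KD. In KD cells E2f1 was higher without overlap between the groups (log2 fold change 0.30, SE 0.034, edgeR adjusted p = 7.51e-05). Ccnd2 was at 1089, 1082 and 1094 CPM in WT and 997, 1019 and 998 CPM in KD. Ccnd2 had its 3 KD samples below its 3 WT samples (log2 fold change -0.12, SE 0.015, edgeR adjusted p = 1.45e-04). Ccnd3 fell as well, by 11.6% (edgeR adjusted p = 0.00126). Ccne2, cyclin E2, was 26.9% higher, and E2f3, Cdk2 and Cdk6 were higher by 9.94%, 6.10% and 3.85%. Rb1 was lower by 7.08% (edgeR adjusted p = 0.0214), a call lost with upper-quartile scaling (adjusted p = 0.0870). It was lost also without WT replicate 1, 2 or 3 (adjusted p = 0.0520, 0.0762 and 0.0627). Cdk2 lost its call without WT replicate 1, 2 or 3 or KD replicate 1 (adjusted p = 0.107, 0.0881, 0.0673 and 0.0830), and with no filter on low counts (adjusted p = 0.0519). E2f2, Cdkn1b and Ccne1 were not called, with log2 fold changes of -0.038, 0.017 and -0.020. E2f2 was called lower with the length and GC trend removed (-0.12, adjusted p = 0.0140), and with upper-quartile scaling Cdk6 was at 0.085 against 0.054.

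**Figure D4:**
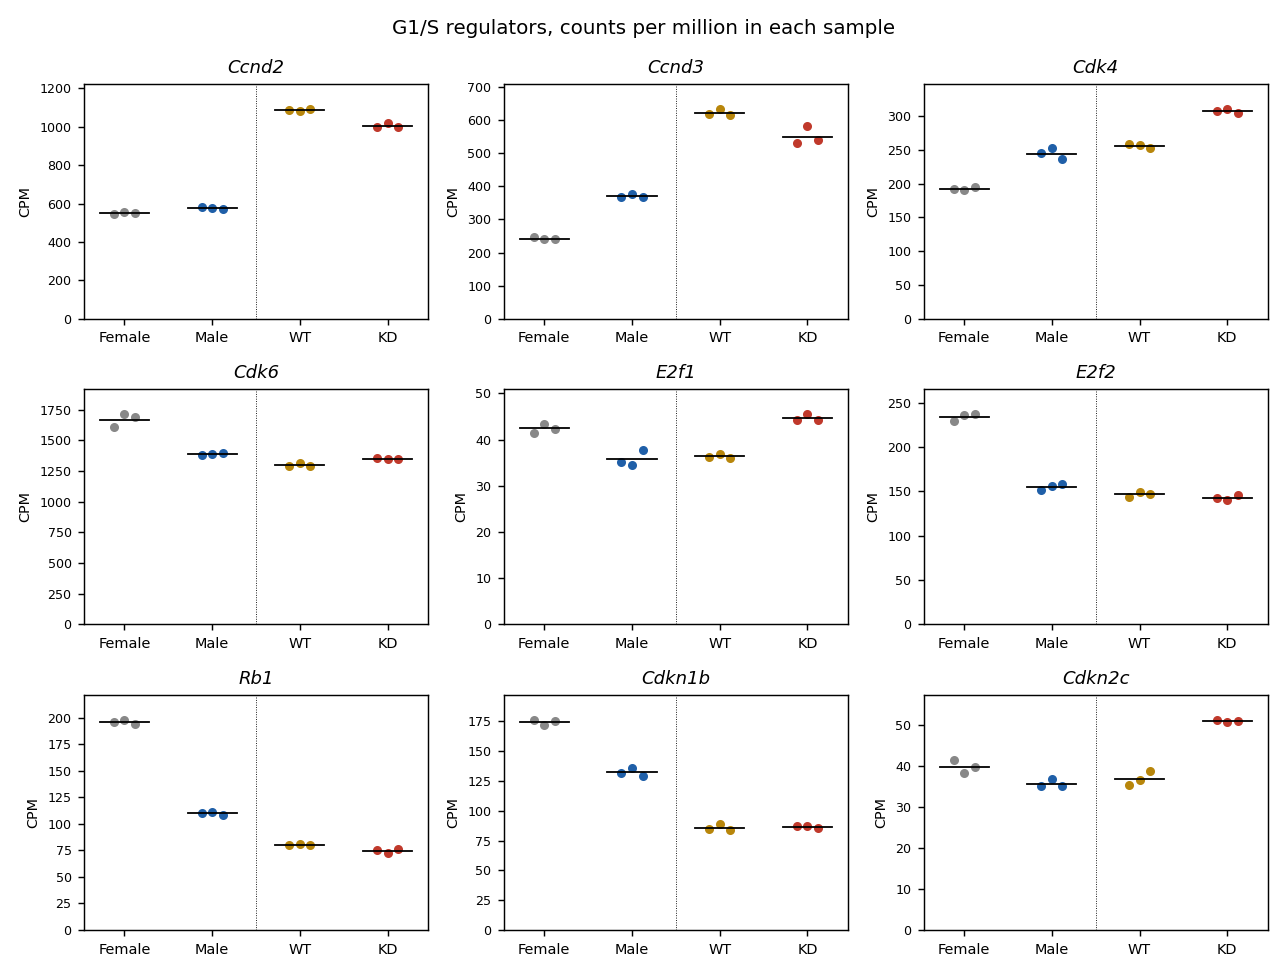
CPM of G1/S regulators in each of the 12 samples, with a line at each group mean and a dotted line between the separately scaled tables. Rb1, E2f2 and Cdkn1b are lower in Male than in Female and Ccnd3 is higher, while Cdkn2c and Cdk4 are higher and Ccnd2 and Ccnd3 lower in KD than in WT.

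Set side by side, the comparisons called 30 of the 51 genes in common, which is 69.8% of the 43 called between the sexes and 83.3% of the 36 called in KD. Over all genes tested in both, 25.7% were called in both, or 50.3% and 70.8% of each set. Of the 30 genes, 11 had the same direction in Male and in KD, 36.7%, compared with 44.9% of all genes called in both. The 9 genes higher in Male and in KD were Cdk4, Fen1, Mcm2, Mcm3, Mcm4, Mcm5, Pcna, Rrm1 and Tk1, or 17.6% of the 51, where 4.92% of all genes were called higher in both. Taken singly, the shares of the 51 called higher were 29.4% in Male and 60.8% in KD, against 23.5% and 16.8% of all tested genes. The 17.6% is close to the product of the separate shares of the 51. The 4.92% was not matched for level. Cdt1 and Rb1 were lower in both comparisons, though Rb1 lost its call in KD under some alternative fits. A further 16 were lower in Male and higher in KD: Ccne2, Cdc45, Cdk2, Cdk6, Cdkn2c, E2f1, E2f3, Gins1, Gins3, Mcm7, Pola1, Pola2, Pold1, Pole, Prim1 and Rfc3. Of these 16, Pola2 and Pold1 were positive in Male against Female once the length and GC trend was removed. Gins1, Pola1 and Cdkn2c lost their call between the sexes under some alternative fit, as did Cdk2, Gins3 and Pold1 in KD. Higher in Male and lower in KD were Ccnd2, Ccnd3 and Rpa1, of which Ccnd2 lost its call between the sexes when some replicates were left out. Orc6 and Ccne1 were called in neither comparison, though each gained a call in Male against Female under another setting. No sample is shared between the comparisons, and the difference between them was not tested.

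**Figure D5:**
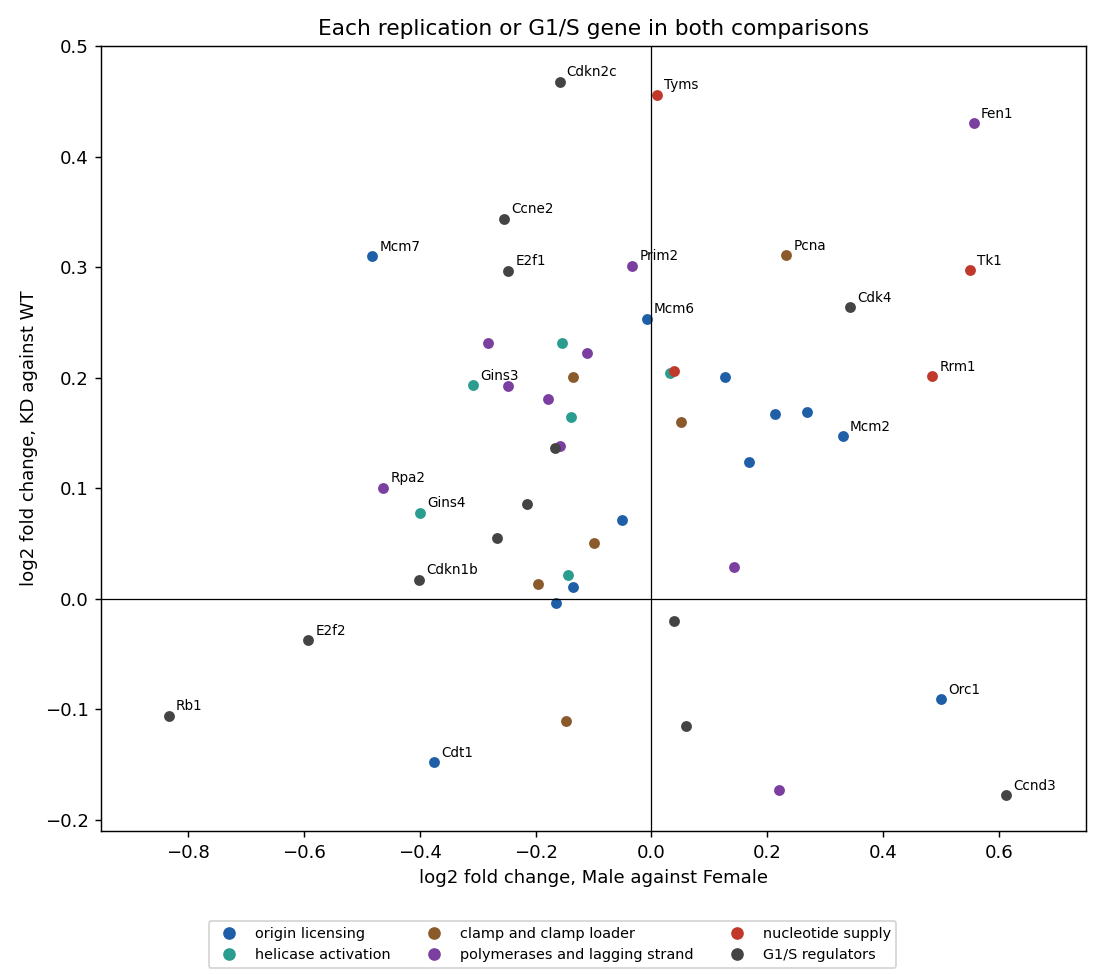
Log2 fold change of each of the 51 genes in KD against WT (vertical axis) plotted against that in Male against Female (horizontal axis), coloured by role. The upper right holds the nucleotide supply genes Tk1 and Rrm1 with Pcna, Fen1, Cdk4 and Mcm2, the upper left Mcm7, E2f1, Ccne2 and Cdkn2c, and Ccnd3 stands at the lower right.

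Levels of different genes were compared as CPM per kilobase of the main transcript. Pcna was highest of the 51 genes in Female (207), Male (243) and KD (326), and Ccnd3 was highest in WT (295, with Pcna at 263). The lowest were Orc1 in Female (7.69), Gins3 in Male (8.53) and WT (7.46), and Gins2 in KD (8.39). Between the 6 subunits of the MCM hexamer, which bind in equal numbers, this level spanned a 2.42-fold range in Female, from 66.0 for Mcm4 to 160 for Mcm7. In Male the range was 2.16-fold, from 72.1 for Mcm4 to 155 for Mcm6. Mcm4 was lowest and Mcm6 highest in WT (81.0 and 142) and in KD (93.0 and 170) too, with ranges of 1.76-fold and 1.83-fold. Replicates of a group agreed closely: the median coefficient of variation of the 51 genes was 1.76% in Female, 1.60% in Male, 1.61% in WT and 2.00% in KD. For 14 of the 51, more than 10% of the 31-base words of the transcripts also occur in another gene. They include Mcm7 (33.4%), Orc2 (27.9%) and Cdk4 (19.5%). Mcm7 shares words with the pseudogene Gm5487 and overlaps Ap4m1 and Cops6 on the opposite strand. Gm5487 averaged 4.52 CPM in Female, 3.24 in Male, 2.74 in WT and 3.41 in KD. Ap4m1 averaged 35.2, 23.7, 24.6 and 23.7 CPM in the same order, so both were lower in Male than in Female, as Mcm7 was. Their part in the Mcm7 difference was not tested. Libraries were stranded, but whether counting used the strand is not given in the sources used here, so reads from such overlaps cannot be told apart.

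Other genes of the same processes were read from lists of partners. Of all tested genes, 23.5% were called higher and 26.3% lower in Male, and 16.8% and 18.4% in KD. Among genes averaging 3 or more in log2 CPM these shares were 37.9% and 38.3% in Male, and 30.4% and 30.3% in KD. Of 43 further replication genes, 16 were called higher and 20 lower in Male, with a median log2 fold change of -0.035, and 26 higher and 7 lower in KD, with a median of 0.16. Ssrp1 and Supt16, the subunits of the histone chaperone FACT, had log2 fold changes of 0.39 and 0.41 in Male against Female (edgeR adjusted p = 2.78e-08 and 4.32e-08), and Dna2, a flap nuclease, one of 0.74 (adjusted p = 2.81e-08). In KD, Samhd1, which degrades deoxynucleotides, fell by 34.1%, from 563 ± 5.39 CPM in WT to 371 ± 6.32 CPM in KD (SD, n = 3; edgeR adjusted p = 8.65e-09). Top2a, a topoisomerase, rose by 23.1% and Chtf18, of an alternative clamp loader, by 37.7%. Of 29 further G1/S genes, 12 were higher and 11 lower in Male (median -0.021), and 14 higher and 6 lower in KD (median 0.12). Tfdp2, a dimer partner of E2F factors, was at 66.9, 73.1 and 71.9 CPM in Female and 20.96, 20.5 and 20.3 CPM in Male. Tfdp2 values in Male all lay below those in Female (log2 fold change -1.78, SE 0.040, edgeR adjusted p = 2.91e-10). E2f4 and Rbl2, which form repressor complexes, had log2 fold changes of 0.37 and -0.50 in Male (edgeR adjusted p = 2.56e-06 and 1.27e-07).

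In KD, Cdkn2a, the INK4 and ARF gene, was at 48.2, 50.1 and 51.6 CPM in WT and 14.5, 15.6 and 15.7 CPM in KD. Cdkn2a was lower in every KD sample than in any WT sample (log2 fold change -1.71, SE 0.047, edgeR adjusted p = 4.01e-09). Cdkn2b, its neighbour encoding the inhibitor p15, was at 28.5, 28.2 and 30.1 CPM in WT and 11.7, 9.39 and 9.53 CPM in KD. In KD cells Cdkn2b was lower without overlap between the groups (log2 fold change -1.50, SE 0.080, edgeR adjusted p = 3.45e-07). Both fell while Cdkn2c, another INK4 gene, rose. Tfdp1, another E2F dimer partner, was higher by 36.1% (edgeR adjusted p = 1.71e-07). Cdkn1a, the p53 target encoding the inhibitor p21, was chosen after its values were seen. It was at 237, 233 and 232 CPM in WT and 313, 341 and 313 CPM in KD. Cdkn1a had its 3 KD samples above its 3 WT samples (log2 fold change 0.46, SE 0.032, edgeR adjusted p = 2.23e-06). Its part in the changes of the 51 genes was not tested. The G2/M and mitosis list, of genes expressed later in the cycle, had 18 of 30 called higher and 6 lower in Male (median 0.19), and 19 higher and 1 lower in KD (median 0.13). Of all tested genes, 23.5% and 26.3% were called higher and lower in Male, and 16.8% and 18.4% in KD. The summed level of the list was 5633 to 5673 CPM in Female, 5847 to 5893 CPM in Male, 5222 to 5239 CPM in WT and 5689 to 5718 CPM in KD, without overlap within either table. Plk1, Ccnb1 and Tpx2, which drive entry into mitosis and spindle assembly, had log2 fold changes of 0.76, 0.87 and 0.54 in Male (edgeR adjusted p = 5.31e-09, 5.81e-09 and 3.73e-08). Nusap1, Foxm1 and Cdk1 had log2 fold changes of 0.45, 0.31 and 0.27 in KD (edgeR adjusted p = 6.11e-07, 4.40e-06 and 5.26e-06).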

How the data were processed

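RNA of 12 samples in 4 groups of 3 was sequenced after ribosomal RNA depletion with a stranded kit, per the labels' protocols. The deposited values were whole-number counts per gene in 2 tables, whose totals differ between samples, and were treated as raw counts. The submitters' processing notes name mm10, bcl2fastq 2.20.0, HISAT2, StringTie and DESeq2, without stating their roles or whether counting used the strand. Of 55487 identifiers, 55227 were matched to GENCODE M21 (GRCm38) for names, positions and lengths, and 260 were not. Groups came from the sample titles. Each table was scaled and tested on its own with edgeR 4.0.16 in R 4.3.3 (TMM factors, filterByExpr, quasi-likelihood F test, Benjamini-Hochberg adjustment over all tested genes, called at adjusted p under 0.05). All 51 members passed the filter in both tables. CPM used TMM-scaled totals and fold changes are Male over Female or KD over WT, on the log2 scale. Standard errors were taken as the size of the log2 fold change over the square root of the F statistic. Levels set across the tables rest on separate scalings. The genes given in full were, in each role and comparison, up to 4 called members with the smallest p, and up to 3 from each partner list. Given in full outside this rule were Kdm5d, Fen1, Rrm2 and Tyms in Male against Female, and Cdkn1a in KD against WT. Members and lists were chosen with earlier results of these data known. Shared sequence was counted as 31-base words of a gene's transcripts also found, on either strand, in those of another gene. The fit was tested on simulated data. Alternatives used DESeq2 1.42.0, limma 3.58.1, other scalings, filters and thresholds, thinned counts, a replicate block, a fit to all 12 samples, removal of a gene length and GC trend, and each replicate left out.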

Additional observations from a re-analysis of the deposited data

How the results depend on the processing

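Of the 43 members called in Male against Female, 40 kept their call in all 6 fits that left out a replicate and 34 in every setting apart from the stricter thresholds; for KD against WT these were 33 and 32 of 36. With the length and GC trend removed, 41 members were called between the sexes (17 higher, 24 lower, median -0.059) and 37 in KD (31 higher, 6 lower, median 0.14). With each replicate left out, 41 to 43 members were called between the sexes (9190 to 9399 of all genes) and 33 to 38 in KD (6073 to 6685). Requiring an absolute log2 fold change of at least 0.5 left 4321 genes and 5 members in Male against Female, and 2031 genes and 0 members in KD against WT, where edgeR, DESeq2 and limma-voom all gave 0, also at an unadjusted p under 0.05. Same-numbered samples did not deviate together (correlations of -0.00113 to 0.0176 between the sexes and -0.0399 to 0.0206 in KD), so the numbers were not taken as pairs; with the replicate block 9740 genes and 42 members, and 6688 genes and 35 members, were called. Under it Gins1 lost its call between the sexes (adjusted p = 0.0677) and Cdk2 in KD (adjusted p = 0.0629). With the block and the length and GC trend removed, so did Cdkn2c between the sexes (adjusted p = 0.0587). That fit also called Orc1 lower in KD (-0.10, adjusted p = 0.0486). 

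Direction changed for these members, the cause of which was not tested. In Male against Female, log2 fold changes became -0.0053 (no filter) and -0.013 (all 12 samples) for Tyms, and 0.023 (genes averaging 3 or more in log2 CPM) for Mcm6. With the length and GC trend removed, alone and with the replicate block, they were 0.019 and 0.019 for Mcm6, 0.014 and 0.014 for Pola2, 0.044 and 0.044 for Pold1, 0.028 and 0.028 for Prim2, and -0.026 and -0.026 for Rrm2. In KD against WT they were -0.020 and -0.021 for Gins2, -0.016 and -0.016 for Lig1, and -0.0070 and -0.0069 for Cdkn1b. Upper-quartile scaling gave 0.027 for Orc2 and 0.010 for Ccne1, and the mean level filter 0.020 and 0.0041. Leaving out a replicate gave ranges of -0.028 to 0.0048 for Mcm6 in Male against Female, -0.0032 to 0.012 for Tyms in Male against Female, -0.011 to 0.067 for Gins2 in KD against WT, -0.0078 to 0.032 for Rfc2 in KD against WT, -0.016 to 0.018 for Orc2 in KD against WT, -0.00044 to 0.044 for Cdkn1b in KD against WT and -0.0017 to 0.021 for Cdc6 in KD against WT. None of these was called in the comparison concerned except Pola2 and Pold1 between the sexes.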

Other observations

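Male and WT are both unedited male cells, handled in separate batches and counted in separate tables that were scaled separately, so their levels are given side by side with no test. With the SD over 3 samples, Ccnd2 averaged 577 ± 4.48 CPM in Male and 1088 ± 5.93 CPM in WT, and Ccnd3 averaged 370.2 ± 4.56 and 623 ± 10.0 CPM. Rrm2 was at 335 ± 4.12 CPM in Male and 533 ± 5.59 CPM in WT. Cdkn1b, Pole and Pola1 stood the other way, at 132 ± 3.24, 239 ± 2.83 and 144 ± 3.49 CPM in Male and 85.5 ± 2.65, 162 ± 3.29 and 101 ± 2.85 CPM in WT. For Ccnd2, Rrm2, Cdkn1b and Pole, the WT to Male ratios of 1.89, 1.59, 0.647 and 0.681 lie farther from 1 than the Male to Female ratios of 1.04, 1.03, 0.758 and 0.822. These genes were picked for their unlike levels in Male and WT, and other members went the other way. For Rb1, Mcm7, Rpa2, E2f2 and Tk1, the WT to Male ratios were 0.730, 0.933, 0.984, 0.944 and 1.025. Their Male to Female ratios of 0.561, 0.716, 0.725, 0.663 and 1.46 lie farther from 1.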
